A study of Mus musculus with 6 samples.

Results

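The 10 genes described here, of 49315 in the count table, encode AP-1 subunits and other transcription regulators of the immediate-early response. They were taken by name: the Fos genes Fos, Fosb and Fosl2, the Jun genes Jun, Junb and Jund, the zinc finger genes Egr1 and Egr2, Ier2, and Atf3. The list was given and left out other genes of these families or names, such as Fosl1, Egr3, Egr4, Ier3, Ier5 and Ier5l, which are counted with the lists of other genes further down. Bulk RNA-seq was performed on regulatory T cells (Tregs) sorted from skin and from its draining lymph nodes (skin-draining lymph node, SDLN), with 3 libraries from each tissue. All mice were 9 days old and carried the Foxp3-GFP reporter, in which green fluorescent protein marks cells that express the Treg transcription factor Foxp3, and no treatment is named in the labels. Each sample held cells pooled from 3 biological replicates. Live CD45+ CD4+ Foxp3-EGFP+ cells were sorted after enrichment of CD45+ cells on beads. All 6 labels carry the same batch number. The tissue field names skin for every sample, so titles define the groups. Libraries are lettered A, B and C as in the table, since the letters could not be tied to the numbers in the titles, and the values of 3 libraries are given in that order.

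The methods describe enzymes for skin and, for lymph nodes in flow cytometry, mashing through a filter, while the section on these samples calls both tissues digested. Tissue of origin and any difference in preparation cannot be told apart in the values below. The skin libraries were far shallower: their totals ran from 3748669 to 11741784 counts, against 47243498 to 116158706 in the SDLN, and 2911 to 5317 genes reached 1 CPM (counts-per-million, relative to the library total) in skin against 12397 to 13002. A count of 0 allowed up to 0.8 CPM in the shallowest skin library. The Foxp3 transcript was at 0, 28.1 and 0.111 CPM in skin, which is 0, 330 and 1 counts, and at 37.8 to 139 CPM in the SDLN. The 11 listed Treg genes as a whole summed to 5936, 9745 and 7328 CPM in skin and to 7141 to 7698 CPM in the SDLN, with Ctla4 called higher in skin, Izumo1r lower and 9 not called, where 1.04% of all tested genes were called higher and 45.3% lower (edgeR, adjusted p under 0.05). The 10 pan T cell markers summed to 4045 to 6734 CPM in skin and 8827 to 10688 in the SDLN, and edgeR called 0 of them in either direction (at an unadjusted p under 0.05, 0 higher and 2 lower, and with DESeq2 1 higher and 3 lower). Markers of myeloid cells summed to 34722 to 60966 CPM in skin against 443 to 779 in the SDLN, with 15 of the 17 tested markers higher in skin against the same 1.04%, 1 (Itgam) lower, and none of the 18 listed at 0 in every library. Keratinocyte markers did not move this way, with sums of at most 0.0852 CPM in skin and Krt5 and Krt14 at 0 in all 6 libraries. The near absence of Foxp3 in skin Tregs A and C and the myeloid sums above the pan T cell sums in all 3 skin libraries go against the label of sorted Tregs, so the names skin Tregs and SDLN Tregs stand below for libraries labelled so.

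AP-1 is a dimer of basic leucine zipper proteins. Fos proteins need a Jun partner to bind DNA, whereas Jun proteins can also pair among themselves, and the dimers bind the motif TGACTCA and, with Atf partners, the related cyclic AMP response element. Immediate-early genes are transcribed from factors already present in the cell, without new protein synthesis, after antigen receptor, growth factor, cytokine or stress signals, and their transcripts are mostly short-lived. In T cells AP-1 cooperates with NFAT at cytokine genes, Egr2 is linked with restraint of activated T cells, and Junb and Batf act in effector Tregs.

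Fos, Jun, Junb, Fosb and Atf3 were higher in the libraries labelled skin Tregs than in those labelled SDLN Tregs, and none of the 10 genes was called lower, although Fosl1 and Egr3, outside the list, were. These 5 of 10 genes passed the test (edgeR quasi-likelihood F test over all 13572 genes tested, adjusted p under 0.05), against 1.04% of all tested genes called higher and 45.3% called lower. At an unadjusted p under 0.05 the count was again 5 higher and 0 lower, and DESeq2 also called 0 lower. All 10 genes passed the filter on low counts, and all 10 had a positive log2 fold change of skin over SDLN, with a median of 3.49 where the median of all tested genes was -2.21, or -1.29 with genes at 3 counts or fewer in every library of a tissue set to their bound. In 7 of 10 genes every skin library lay above every SDLN library, a pattern held by 2.39% of tested genes, while in 53.6% every SDLN library lay above. Over the 1623 genes with more than 3 counts in all 6 libraries, where the low depth in skin weighs less, the background was 7.39% called and 18.2% with skin above, and of the 8 described genes in that set 4 were called and 6 had skin above. The 10 genes and the lists below were chosen with earlier results of these data known. Their counts and medians against those of all genes are therefore descriptions and no test of a set. The p-values measure the spread between these pooled samples. In bulk samples such as these, fewer cells of a type and less RNA per cell cannot be told apart. The myeloid markers moved with tissue in the same direction as these genes, and their part in the result was not tested.

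**Figure D1:**
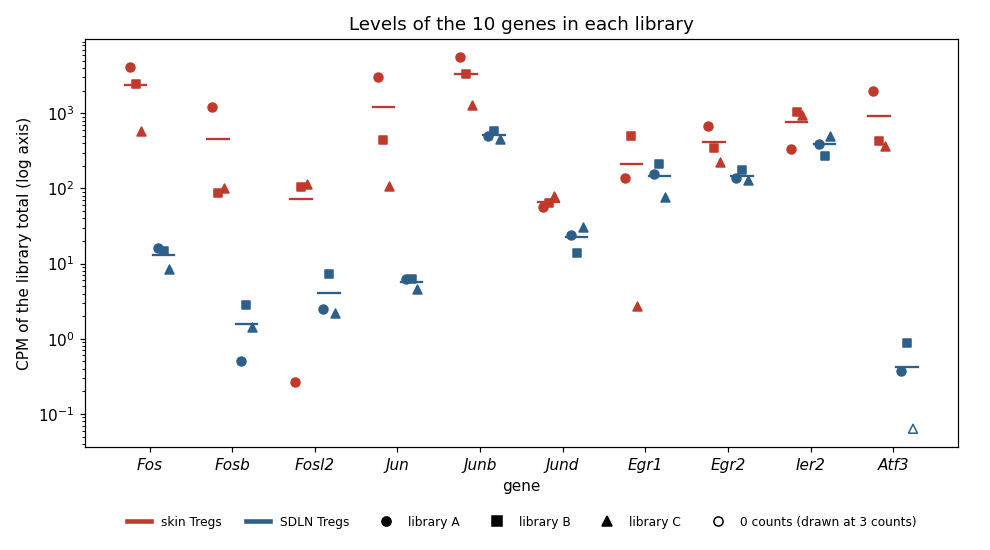
Level of each of the 10 genes in the 6 libraries, in CPM of the library total on a log axis. Points are single libraries (circle A, square B, triangle C) and lines are group means over 3 libraries; the open triangle is the 0 count of Atf3 in SDLN Tregs C, drawn at the level of 3 counts. Skin and SDLN points are separated for Fos, Fosb, Jun, Junb, Jund, Egr2 and Atf3, and overlap for Fosl2, Egr1 and Ier2.

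The sequences upstream of the 5 called genes are shown because these genes moved together, although no binding or chromatin was measured here. RefSeq windows (GRCm38.p6) were used for 8 of the 10 genes, all but Egr1 and Ier2. Each sequence below is the 250 bases before the RefSeq start site, written 5′ to 3′ on the gene's strand. Capitals mark matches on either strand to the motifs searched: TGACTCA (the AP-1 site), TGACGTC (the core of the cyclic AMP response element, CRE), TGACG (a shorter CRE motif that overlaps it and was added after the sequences were seen), the CArG box of SRF, GTGGGCG (the Egr core), TATAAA and GGGCGG (the GC box).
Fos, chr12:85473640-85473889, plus strand: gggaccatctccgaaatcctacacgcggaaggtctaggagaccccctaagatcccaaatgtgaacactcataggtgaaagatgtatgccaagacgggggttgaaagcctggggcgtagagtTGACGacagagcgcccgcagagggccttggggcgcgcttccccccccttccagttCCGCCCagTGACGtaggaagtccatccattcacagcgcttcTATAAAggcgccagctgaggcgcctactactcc
Fosb, chr7:19310046-19310295, minus strand: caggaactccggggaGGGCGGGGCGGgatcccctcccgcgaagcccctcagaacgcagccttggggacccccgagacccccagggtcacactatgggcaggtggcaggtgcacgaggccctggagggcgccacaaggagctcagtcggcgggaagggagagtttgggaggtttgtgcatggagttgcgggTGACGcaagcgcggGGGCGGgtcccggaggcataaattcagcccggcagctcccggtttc
Jun, chr4:95052223-95052472, minus strand: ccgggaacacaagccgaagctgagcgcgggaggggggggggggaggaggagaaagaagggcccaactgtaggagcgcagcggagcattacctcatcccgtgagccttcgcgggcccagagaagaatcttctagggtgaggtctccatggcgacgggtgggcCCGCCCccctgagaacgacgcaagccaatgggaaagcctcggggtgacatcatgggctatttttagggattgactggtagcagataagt
Junb, chr8:84978749-84978998, minus strand: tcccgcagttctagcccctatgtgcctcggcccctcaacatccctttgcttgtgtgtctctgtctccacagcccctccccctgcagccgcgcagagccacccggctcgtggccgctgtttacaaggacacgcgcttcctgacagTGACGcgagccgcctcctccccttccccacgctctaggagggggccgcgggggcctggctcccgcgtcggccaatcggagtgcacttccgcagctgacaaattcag
Atf3, chr1:191183334-191183583, minus strand: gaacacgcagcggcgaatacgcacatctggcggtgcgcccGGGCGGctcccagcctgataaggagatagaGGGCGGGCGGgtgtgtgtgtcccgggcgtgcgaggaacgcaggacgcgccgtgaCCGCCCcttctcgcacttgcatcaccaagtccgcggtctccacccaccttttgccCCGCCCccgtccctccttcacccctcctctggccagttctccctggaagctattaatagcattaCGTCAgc

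The letters TGACG were found in 4 of these 5 windows and in 17.8% of all 32851 RefSeq windows of that length. They were picked after these sequences were seen, so that contrast is no evidence of enrichment. Of the genes not called, Egr2 held these letters in its windows 3 to 5, and Fosl2 and Jund did not. Fos held them at 129 to 125 and at 66 to 62 bases before its start, the second of these placed between a GC box at 74 to 69 bases and the only TATAAA of the set at 33 to 28 bases. Fosb held TGACG at 60 to 56 bases, Junb at 106 to 102 bases, and Atf3, on the opposite strand, at 7 to 3 bases. GC boxes were found in Fos, Fosb, Jun and Atf3, with 5 in Atf3, and in 32.7% of all windows. None of the 5 windows held the AP-1 site, the CRE core, the CArG box or the Egr core as searched, which are in 4.46%, 2.78%, 1.47% and 7.02% of all windows. Other variants of these motifs and bases further upstream were not searched, so such sites may still be present. The RefSeq start of Atf3 lies 34706 bases inside the gene as GENCODE draws it, so its window marks an internal start.

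Fos (ENSMUSG00000021250, GRCm38 chromosome 12, 85473890 to 85477273, plus strand) encodes the founding AP-1 subunit. Its level was 4175, 2478 and 588 CPM in skin and 16.2, 14.8 and 8.57 CPM in the SDLN. The groups did not overlap, and the lowest skin library was 36.4 times the highest SDLN library. The means were 2414 ± 1794 and 13.2 ± 4.05 CPM (SD, n = 3), and edgeR gave a log2 fold change of 7.31 (SE 0.76, adjusted p = 0.00322). This rested on 5310 to 29093 counts per skin library. Among all genes ordered by CPM per kb of exon, Fos held ranks 20, 28 and 229 in skin and 6063, 6605 and 7544 in the SDLN.

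Fosb (ENSMUSG00000003545, chromosome 7, 19302696 to 19310051, minus strand) encodes a second Fos protein that is induced with Fos. It was at 1197, 85.8 and 103 CPM in skin and 0.508, 2.80 and 1.42 CPM in the SDLN. All skin libraries were above all SDLN libraries, with skin Tregs A far over the other skin libraries. In edgeR the change was 7.83 on the log2 scale (SE 1.64, adjusted p = 0.0101), and the call was lost when SDLN Tregs C was left out, at 7.72 (adjusted p = 0.0513). It was 5.90 without skin Tregs A and 8.59 without SDLN Tregs B, called in both. With the column letter as a replicate block in edgeR, it was 7.11 and not called (adjusted p = 0.121).

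Fosl2 (ENSMUSG00000029135, chromosome 5, 32135801 to 32157842, plus strand) encodes Fra-2, a Fos protein that is made more slowly and lacks the strong activation domain of Fos. Its level was 0.267, 104 and 113 CPM in skin, the first of these a single count, and 2.51, 7.34 and 2.22 CPM in the SDLN. Skin Tregs B and C were high and skin Tregs A was below every SDLN library, which left no gap between the tissues. A log2 fold change of 4.42 (SE 2.22) did not pass the test (edgeR adjusted p = 0.193). Without skin Tregs A it was 4.75 with an adjusted p of 0.0178. It was 3.63 without skin Tregs C, 5.06 without SDLN Tregs B and 2.56 with limma voom, called in none of these. Of 14 alternative fits, 2 called it, DESeq2 and the fit without skin Tregs A.

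Jun (ENSMUSG00000052684, chromosome 4, 95049034 to 95052222, minus strand) encodes c-Jun, the principal partner of Fos. It was at 3041, 441 and 109 CPM in skin and at 6.23, 6.21 and 4.66 CPM in the SDLN. The groups did not overlap, but the skin libraries spread widely while the SDLN libraries were close together. The means were 1197 ± 1606 and 5.70 ± 0.903 CPM (SD, n = 3), and the log2 fold change was 7.32 (SE 1.31, edgeR adjusted p = 0.00609). Skin Tregs A carried much of that mean, and without it the log2 fold change was 5.55 (adjusted p = 0.00749).

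Junb (ENSMUSG00000052837, chromosome 8, 84974484 to 84978718, minus strand) encodes a Jun protein with weaker activation of classic AP-1 sites that is needed for effector functions in T helper cells and Tregs. Its level was 5544, 3288 and 1306 CPM in skin and 492, 581 and 461 CPM in the SDLN. It was abundant in both tissues, at rank 14 to 75 per kb in skin and 173 to 287 in the SDLN, and the lowest skin library was 2.25 times the highest SDLN library. Its log2 fold change was 2.55 (SE 0.38, edgeR adjusted p = 0.00374).

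Jund (ENSMUSG00000071076, chromosome 8, 70698949 to 70700616, plus strand) encodes the Jun protein that is present in most resting cells and is little induced. It was at 56.8, 63.9 and 78.3 CPM in skin and at 23.9, 14.0 and 30.4 CPM in the SDLN. The groups did not overlap and the skin libraries were close together, with means of 66.3 ± 10.9 and 22.8 ± 8.24 CPM (SD, n = 3). The log2 fold change of 1.56 (SE 1.15) did not pass edgeR's test (adjusted p = 0.413), whereas DESeq2 gave 1.66 with an adjusted p of 0.00339.

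Atf3 (ENSMUSG00000026628, chromosome 1, 191170296 to 191218039, minus strand) encodes a stress-induced basic leucine zipper protein that pairs with Jun proteins and represses inflammatory genes in macrophages. It had 7487, 5024 and 3278 counts in skin, which is 1997, 428 and 363 CPM. In the SDLN it had 43, 64 and 0 counts, which is 0.370, 0.879 and 0 CPM. The gap between the groups was the widest of the 10 genes, with the lowest skin library at 413 times the highest SDLN library. On the log2 scale the change was 10.90 (SE 2.30, edgeR adjusted p = 0.0105). It was 9.86 without skin Tregs A, 11.97 without SDLN Tregs B and 10.22 without SDLN Tregs C, called in each.

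Egr1 and Egr2 encode zinc finger factors induced through the MAP kinase and calcium arms of antigen receptor signalling. Egr1 (ENSMUSG00000038418) was at 137, 504 and 2.77 CPM in skin, the last of these 25 counts, and at 154, 209 and 76.3 CPM in the SDLN. Skin Tregs B was above and skin Tregs C below all SDLN libraries. Its log2 fold change of 0.54 (SE 1.57, edgeR adjusted p = 0.912) did not keep its direction, at -2.52 with limma voom and -1.55 without skin Tregs B, with adjusted p of 0.276 and 0.490.

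Egr2 (ENSMUSG00000037868, chromosome 10, 67535475 to 67542188, plus strand) was at 689, 345 and 226 CPM in skin and at 140, 178 and 128 CPM in the SDLN. The groups did not overlap, although the lowest skin library was only 1.27 times the highest SDLN library. The log2 fold change of 1.34 (SE 0.58) did not pass edgeR's test (adjusted p = 0.123) and passed that of DESeq2 (1.48, adjusted p = 0.00460). Ier2 (ENSMUSG00000053560, chromosome 8, 84661331 to 84662852, minus strand), a nuclear immediate-early protein, was at 331, 1026 and 965 CPM in skin and at 390, 273 and 501 CPM in the SDLN. Skin Tregs A lay among the SDLN libraries and the other skin libraries above them. Its log2 fold change was 1.09 (SE 0.71, edgeR adjusted p = 0.336), and 1.37 without skin Tregs A (adjusted p = 0.0217).

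**Figure D2:**
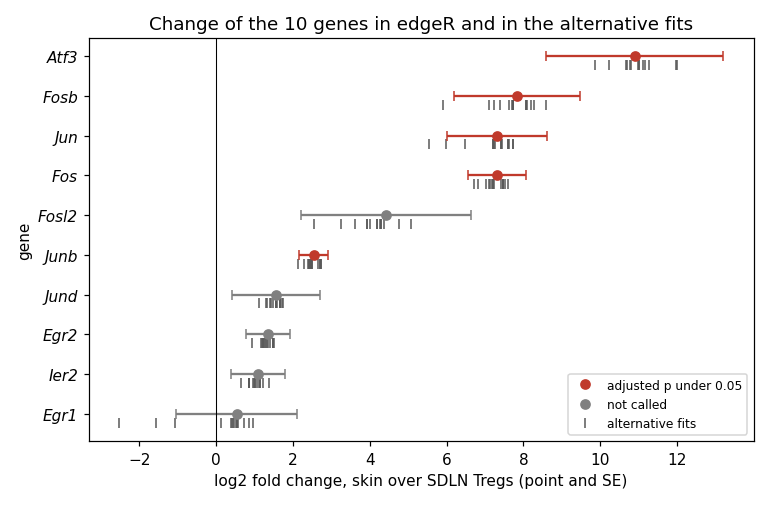
Log2 fold change of each gene, skin over SDLN Tregs, from edgeR (point, with its SE as the bar) and from the alternative fits (ticks). Red marks an adjusted p under 0.05. The called genes run from Junb at 2.55 to Atf3 at 10.90, and Egr1 is the only gene with ticks on both sides of 0.

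The call of Fos, Jun and Junb held in all 15 alternative fits and that of Atf3 in all 14 that tested it. DESeq2 called 8 of the 10 genes higher, adding Fosl2, Jund and Egr2, against 2.98% of all genes higher and 47.8% lower. Without skin Tregs A, the library with the lowest total, 7 were called, against 2.04% of the 15914 genes tested there. Overlapping genes were a further limit, since the strand setting of the counting is not stated. Prdx2, which overlaps Junb, was at 77.2 to 149 CPM in skin and 138 to 218 in the SDLN. Junos, an antisense gene that overlaps exons of Jun, was at 0 in skin and at most 13 counts in an SDLN library, and Gm11175, which overlaps Jund, was at 0 in all 6 libraries.

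The Fos and Jun transcripts differed in make-up between the tissues, as well as in amount. Summed per kb of exon over the 6 Fos and Jun genes, the level was 5364, 2684 and 927 CPM per kb in skin and 237, 270 and 224 CPM per kb in the SDLN. Junb made up 90.1%, 93.4% and 89.4% of that sum in the SDLN and 44.9%, 53.3% and 61.2% in skin. Fos made up 33.1%, 39.3% and 27.0% in skin and 2.89%, 2.33% and 1.63% in the SDLN. Jun took 17.8% in skin Tregs A, 5.15% in B and 3.69% in C, and less than 1% in each SDLN library. Fosl2 and Fosb together with Jund made up the rest, and Jund ranged from 0.635% to 5.06% in skin and from 3.10% to 8.12% in the SDLN. The shares of Fos, Fosb, Jun and Junb did not overlap between the tissues, while those of Fosl2 and Jund did. These shares are descriptions without a test, since they follow from the changes already tested.

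**Figure D3:**
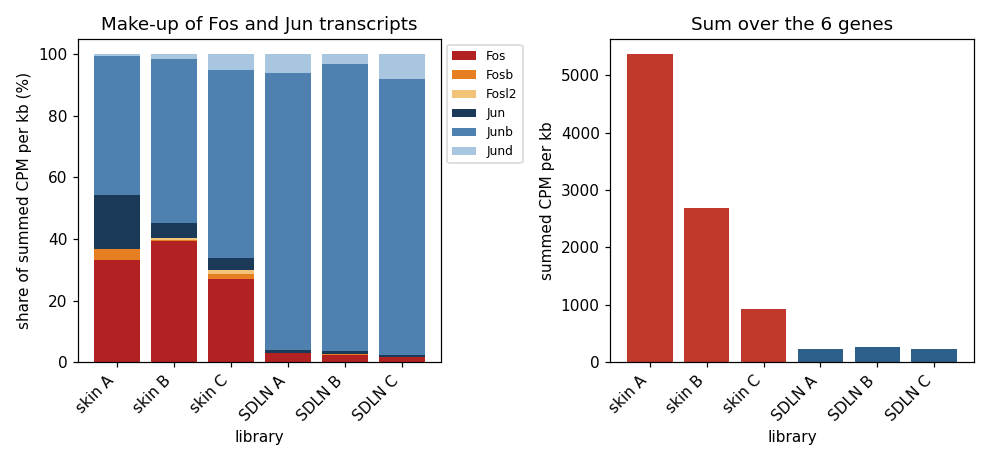
Left, share of each of the 6 Fos and Jun genes in their summed CPM per kb of exon, in percent, for each library. Right, that sum in CPM per kb. Junb fills 89.4% to 93.4% of the SDLN bars and 44.9% to 61.2% of the skin bars, and the sum runs from 927 to 5364 in skin and from 224 to 270 in the SDLN.

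Fos and Egr1, which share serum response factor as a regulator, did not keep one ratio. Per kb of exon, the Fos level was 57.9, 9.36 and 405 times that of Egr1 in skin, and 0.200, 0.136 and 0.214 times in the SDLN. Fos was therefore above Egr1 in each skin library and below it in each SDLN library. The ratio of Fos to Junb varied less among the skin libraries, at 0.737, 0.737 and 0.440 in skin and 0.0321, 0.0250 and 0.0182 in the SDLN. The ratio of Fos to Jun was 1.86, 7.63 and 7.30 in skin and 2.5 to 3.51 in the SDLN, so skin Tregs A lay below and the other skin libraries above all SDLN libraries.

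The 10 genes together took 1.72%, 0.876% and 0.385% of all counts in skin and 0.121% to 0.129% in the SDLN. Skin Tregs A was the highest skin library for Fos, Fosb, Jun, Junb, Egr2 and Atf3 and the lowest for Fosl2, Jund and Ier2. It was also the highest for the summed myeloid markers, at 60966 CPM against 38474 in B and 34722 in C, and the lowest for the pan T cell sum, at 4045 CPM against 6108 and 6734. Mast cell and granulocyte markers summed to 226 CPM in skin Tregs A, nearly all of it the mast cell protease gene Cma1 at 216 CPM, and to 0 in B and C. The order A, B, C of the Fos level was thus also the order of the myeloid sum and the reverse of the pan T cell sum over these 3 skin libraries, and the part of cell make-up was not tested.

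The genes nearest to Fos in their pattern, by the root mean square difference of centred log2(CPM + 1) over the 6 libraries among 2340 genes whose mean reached 100 CPM, were Alox5ap (0.274), Fcgrt (0.305) and the class II gene H2-Eb1 (0.536). H2-Eb1, which is on the myeloid marker list, was at 4067, 2075 and 1383 CPM in skin and 17.8, 11.9 and 6.94 CPM in the SDLN. The nearest to Jun were Plaur (0.621), Alox5ap (0.642) and Cd300ld (0.667), all of them further away than the first genes for Fos. Those nearest to Junb were Edem1 (0.232), Atf4 (0.271) and the protease gene Ctsc (0.290). The points share libraries and depth, and these distances carry no test.

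The other AP-1 and related basic leucine zipper genes had a median log2 fold change of 0.49, with 8 of 14 positive, beside the -2.21 of all genes. Of 16 listed and 14 tested, 0 were called higher by edgeR (also 0 at an unadjusted p under 0.05, and 2, Atf2 and Batf3, by DESeq2) and 5 lower, against 1.04% and 45.3% of all tested genes. The 5 were Atf7, Bach2, Fosl1, Mafk and Nfe2l1, each with at most 3 counts in every skin library. Bach2, a repressor at AP-1 sites that preserves resting T cells, was at 34.4 to 56.8 CPM in the SDLN and at 0 in each skin library, at least 99.1-fold lower in skin. Fosl1, the gene of Fra-1, was at 0.826 to 1.94 CPM in the SDLN and 0 in skin, at least 3.14-fold lower. Both bounds set the skin mean at 3 counts per library and cover counting error only. Batf, the AP-1 partner of Irf4 in effector Tregs, was at 0, 275 and 92.2 CPM in skin and 132, 134 and 148 CPM in the SDLN. Its groups overlapped, with an adjusted p of 0.996 in edgeR.

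Among other immediate-early genes, Btg2, Dusp1, Klf4 and Klf6 were higher in skin and Egr3 was lower. These were 4 and 1 of the 19 tested of 21 listed, against 1.04% and 45.3% of all tested genes, with a median log2 fold change of 2.33. Dusp1, a phosphatase that switches off MAP kinases, was at 7464, 3994 and 4161 CPM in skin and 115, 102 and 114 CPM in the SDLN, a log2 fold change of 5.46 (SE 0.24, edgeR adjusted p = 0.00322). Its skin libraries were much closer to one another than those of Fos or Jun. The calls of Dusp1 and Klf6 held in all 15 alternatives. Btg2 was called in 9 of 15 (highest adjusted p 0.246) and its call was lost without any 1 of the SDLN libraries, while its log2 fold change went from 1.69 to 1.10 without skin Tregs A. Klf4 was called in 11 of 14, and not without SDLN Tregs A or B. Klf6, a zinc finger factor, was at 1570, 1297 and 2121 CPM in skin and 100, 141 and 142 CPM in the SDLN, with a log2 fold change of 3.74 (SE 0.49, edgeR adjusted p = 0.00326). Nr4a1, a reporter of antigen receptor signalling, was at 528, 3041 and 1239 CPM in skin and 323 to 335 CPM in the SDLN. Its groups did not overlap, and its edgeR adjusted p was 0.0514. It was called in 6 of 15 alternatives, DESeq2 and limma voom among them (adjusted p from 0.000827 to 0.156 over all), and without skin Tregs B its log2 fold change was 1.54. Egr3, which is induced with Egr2 in T cells, was at 0 in skin and at 1.29 to 2.88 CPM in the SDLN, at least 4.28-fold lower in skin.

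The next genes are upstream of the 10, as MAP kinases and as factors that act on their promoters. Of 26 listed and tested, 1 was called higher and 10 lower, against 1.04% and 45.3% of all tested genes, with a median log2 fold change of -1.16 beside the -2.21 of all genes. Map2k3, a kinase that activates p38, was the gene called higher, at 423, 284 and 561 CPM in skin and 84.5, 113 and 73.8 CPM in the SDLN (log2 fold change 2.27, SE 0.68, edgeR adjusted p = 0.0358). The call of Map2k3 was kept in 8 of 15 alternatives and lost without skin Tregs C (1.61, adjusted p = 0.0997) and without any 1 of the SDLN libraries, and the adjusted p reached 0.403. Mapk14, which encodes p38 alpha, was at 0, 0 and 0.443 CPM in skin and 25.0 to 40.2 CPM in the SDLN, and was called lower (edgeR adjusted p = 0.0220), though not without SDLN Tregs B or C. Of the 10 called lower, 7 had at most 3 counts in every skin library, among them Mapk3, Mapk8 and Elk1. Srf, the factor that binds CArG boxes, had 279 counts in skin Tregs B and 0 in the others, and was not called (edgeR adjusted p = 0.875). Without skin Tregs B, which leaves no Srf count in skin, and with limma voom it was called lower, as were Nab1 and Nab2 below. The Egr corepressor genes Nab1 and Nab2 were not called by edgeR or by DESeq2 in either direction (0 at an unadjusted p under 0.05), and limma voom, and edgeR without skin Tregs B, called both lower.

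Of 21 known targets of AP-1 or Egr factors, 16 were tested, with 6 called higher and 4 lower, against 1.04% and 45.3% of all tested genes. The 6 were Il1b, Plaur, Mt1, Ccl3, Ccl4 and Cdkn1a. Il1b, a cytokine mainly of myeloid cells, was at 609, 623 and 384 CPM in skin and at 0 in every SDLN library, at least 12376-fold higher in skin. Plaur, the urokinase receptor, was at 811, 116 and 76.1 CPM in skin and 1.40, 2.25 and 3.39 CPM in the SDLN, and its skin libraries stood in the same order as those of Jun. Without skin Tregs A its log2 fold change went from 6.78 to 5.35. The call of Il1b held in all 14 alternatives that tested it and that of Cdkn1a in 14 of 15. Those of Plaur, Ccl4, Mt1 and Ccl3 held in 12, 11, 10 and 9 of the 14 or 15 alternatives that tested them, each being lost without SDLN Tregs A, without SDLN Tregs B and, for all but Plaur, without SDLN Tregs C. The 4 called lower were the T cell cytokine genes Il4, Ifng and Tnf and the ubiquitin ligase gene Cblb, each at 3 counts or fewer in every skin library. Tnf was at 8.81 to 23.1 CPM in the SDLN and 0 in skin, at least 34.1-fold lower. Il4 averaged 0.552 CPM in the SDLN, 1.19 times the mean level of 3 counts in skin. In skin Tregs A, 3 counts are 0.8 CPM, which is above that SDLN mean. The lower call of Il4 was thus at the limit of detection. The filter left Il4 untested at equal depth and without any 1 of the SDLN libraries, and it was called in the 10 alternatives that tested it. Cblb was called in 13 of 14 and Ifng and Tnf in all 14 that tested them. Ccl3 and Ccl4, chemokines made by macrophages and by activated T cells, were at 52.3 to 142 and 95.7 to 638 CPM in skin and at no more than 0.801 and 6.27 CPM in the SDLN.

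**Figure D4:**
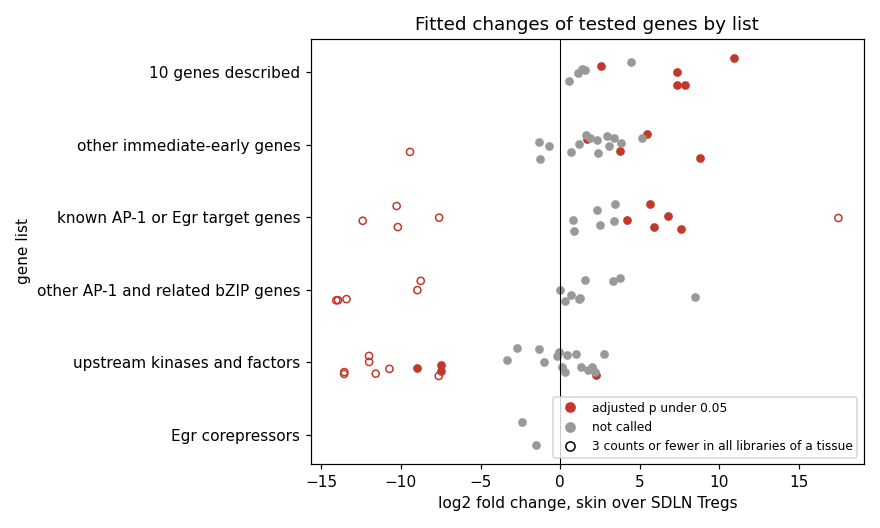
Log2 fold change, skin over SDLN Tregs, of every tested gene in the 10 genes described and in the 5 other lists. Red is an adjusted p under 0.05 and grey is not called; open points are genes with 3 counts or fewer in all libraries of one tissue, whose fitted change is no measure of size. All 10 genes described lie right of 0, while 10 of 26 upstream genes and 5 of 14 other AP-1 and related genes are called on the left, where 45.3% of all tested genes are called.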

How the data were processed

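Bulk RNA-seq was performed by the authors on 3 skin and 3 SDLN Treg samples. Per the submitters' processing notes the tools were Trimmomatic 0.36, STAR 2.5.2b and featureCounts in Subread 1.5.2, on GRCm38. The deposited values were raw counts per Ensembl gene. The annotation, strand setting and handling of duplicates are not given in the sources used here, so floors cover counting error only. GENCODE M21 named 49056 of 49315 genes, and renamed symbols were matched through RefSeq synonyms.

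Counts were tested with edgeR 4.0.16 in R 4.3.3 (filterByExpr, TMM, robust quasi-likelihood F test, tissue as the only term), with Benjamini-Hochberg adjustment over 13572 genes at 0.05, after the code was tested on simulated data. CPM used library totals, and genes were compared with one another per kb of merged exons. The biological coefficient of variation was 1.43. A gene at 3 counts or fewer was at the floor. Alternatives were DESeq2 1.42.0, limma 3.58.1 voom with quality weights, other normalizations, other filters, equal depth, leaving out each library and a replicate block on the column letter. The study's methods state no test for these samples. No pair of libraries was identical.

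The 10 genes and all lists were chosen with earlier results of these data known. Genes named were these 10, list genes that were called or abundant, the 3 genes most like Fos, Jun and Junb, and markers. Some list genes that were not called (Srf, Nr4a1, Nab1, Nab2) and genes overlapping the 10 were named after their values were seen.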

Additional observations from a re-analysis of the deposited data

How the results depend on the processing

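Fos, Jun, Junb and Atf3 were called higher in skin in every alternative that tested them, with the highest adjusted p at 0.0166, 0.0338, 0.0316 and 0.0407. With DESeq2 the calls higher went from 5 to 8 of the 10 genes, from 0 to 2 of the other AP-1 and related genes, from 4 to 8 of the other immediate-early genes and from 1 to 2 of the upstream genes. With at least 10 counts in every library, only 8 of the 10 genes, 2 other AP-1, 7 other immediate-early and 3 upstream genes could be tested and no Egr corepressor. There 4 of the 10 genes and 2 other immediate-early genes were called higher and 0 upstream genes, and the calls lower fell to 0 in the other AP-1, other immediate-early, upstream and target lists. Without a filter 0 upstream genes were called higher, and with libraries drawn down to equal depth 0 other immediate-early genes were called lower. With limma voom 2 Egr corepressors were called lower, and Egr1 turned to -2.52. Leaving out 1 library at a time gave 4 to 7 of the 10 genes higher (7 without skin Tregs A, 4 without SDLN Tregs C) and 0 lower. For the other AP-1 genes the range was 0 to 2 higher (2 without skin Tregs B) and 4 to 7 lower. For the other immediate-early genes it was 2 to 7 higher (7 without skin Tregs A, 2 without SDLN Tregs A or B) and 1 to 3 lower (2 without skin Tregs A, 3 without skin Tregs C). For the upstream genes it was 0 to 2 higher (2 without skin Tregs A, 0 without any 1 of the SDLN libraries) and 7 to 14 lower, for the Egr corepressors 0 to 2 lower (2 without skin Tregs B), and for the targets 2 to 8 higher (2 without SDLN Tregs A or B, 3 without C) and 3 to 5 lower. Egr1 turned to -1.55 without skin Tregs B. The log2 fold change without 1 library ran from 6.82 to 7.60 for Fos, 5.55 to 7.73 for Jun, 2.14 to 2.73 for Junb, 5.90 to 8.59 for Fosb and 9.86 to 11.97 for Atf3. Apart from the smaller number of genes tested under the stricter filter, the cause was not tested. The median log2 fold change of the 10 genes was 3.36 to 3.50 under the other normalizations. The columns carry the letters A to C in both tissues, and nothing in the labels says that a letter marks the same mice. Deviations from the tissue means correlated between same-lettered libraries at 0.0219 (A), -0.0192 (B) and 0.07 (C). Library A of skin and B of the SDLN correlated at 0.0524. The highest value of all pairs was the same-lettered 0.07. Values this small, from 3 libraries per tissue, cannot decide whether the letters mark pairs. The methods pool 3 biological replicates into 1 sample, with 3 samples in total, and do not say whether skin and SDLN pools share mice. The main fit used no pairing. With the letter as a replicate block, chosen after seeing the data, 4 of the 10 genes were called higher (Fosb not, adjusted p = 0.121 in edgeR) and 0 lower, with 0 upstream genes and 1 target gene higher, and Egr1 at -1.07. Low depth in skin limits what can be said of genes with few counts there, since 3 counts are 0.255 to 0.8 CPM.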

Other observations

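RefSeq gives 5 windows for Egr2, which edgeR did not call. The first, 24 bases inside the GENCODE gene, held an Egr core at 31 to 25 bases before its start and 4 GC boxes. The other windows, whose starts lie 2091 to 2455 bases inside the gene, each held a CArG box (1.47% of all RefSeq windows do), and the last 3 also held the CRE core TGACGTC (2.78%). The last 3 windows overlap one another and share these matches, whereas the second overlaps none of the others and its CArG box is a separate site. The window of Fosl2 held 1 GC box and that of Jund none of the motifs searched.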
